A study of Mus musculus with 8 samples.

Results

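The 9 genes described here encode the mouse counterparts of proteins that join the leukemia fusion AML1-ETO on DNA, or that work beside them in blood stem and progenitor cells. They are the E proteins Tcf12 and Tcf3, the bHLH factors Lyl1 and Tal1, the adaptors Lmo2 and Ldb1, the zinc finger factor Gata2 and the ETS factors Erg and Fli1. They were chosen by gene symbol, all 9 were found, and they make up 9 of the 23997 genes in the table. Expression was measured by RNA sequencing of leukemic bone marrow from C57BL/6 mice, in 8 libraries. In all 3 groups, marrow taken 4 days after an injection of 5-fluorouracil was cultured with IL3, IL6 and SCF, transduced, and given 48 hours later to lethally irradiated mice, whose RNA was prepared once they had succumbed to leukemia. The AE+Meis2 group carried AML1-ETO and Meis2 (n = 3, median latency 171 days), the AE9a+Meis2 group carried AML1-ETO9a and Meis2 (n = 3, 102 days), and the AE9a group carried AML1-ETO9a alone (n = 2, 138 days). AML1-ETO9a is a shorter splice form of AML1-ETO that lacks the end of its ETO part, and Meis2 is a TALE homeobox factor. The RNA came from whole marrow of recipients, so cells of the irradiated host and normal donor cells could be in it, and a bulk value cannot tell fewer cells of a type from less RNA per cell. The labels do not say whether libraries come from separate transductions or donors, so p-values measure only the spread between these libraries, which may be technical.

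E proteins are bHLH factors that bind the E-box in pairs, either with each other or with a tissue-restricted partner such as TAL1 or LYL1. LMO2 is a LIM-only protein that bridges such a pair to GATA factors and to LDB1, which self-associates and can bring distant elements together. In human leukemia cells, AML1-ETO was found in a complex with the E proteins HEB (TCF12) and E2A (TCF3), LYL1, LMO2 and LDB1. In blood stem and progenitor cells, TAL1, LYL1, LMO2, GATA2, ERG, FLI1 and RUNX1 bind many of the same regulatory regions and are known together as the heptad.

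Some libraries stood apart from the rest or from others of their group. Meis2 was at 13.1, 38.2 and 81.5 FPKM in AE+Meis2, at 621, 604 and 1277 FPKM in AE9a+Meis2, with 6.99 and 13.2 FPKM in AE9a (FPKM scales fragments by transcript length and library size; values follow replicate number). Runx1t1, the mouse gene of the ETO part, was at 21.6, 223 and 218 FPKM in AE+Meis2, at 18.03, 11.2 and 10.3 FPKM in AE9a+Meis2, with 26.8 and 23.4 FPKM in AE9a. The library labelled AE+Meis2 replicate 1 lies inside the range of the AE9a groups for Runx1t1, and below AE9a replicate 2 for Meis2. These values raise doubt about its label, and every value of AE+Meis2 includes it. AML1-ETO9a also carries part of ETO, yet Runx1t1 was at 10.3 to 26.8 FPKM in the groups with it. Runx1t1 alone therefore cannot settle whether a label is right. Whether the transduced sequences are human or mouse is not stated in the labels, so these values may measure the transduced genes only as far as their reads aligned to the mouse genes, and this limits the check. In AE9a+Meis2 replicate 3 and AE9a replicate 1, 84.2% and 72.1% of 1536 genes of families silent in marrow (such as olfactory receptors and beta-defensins) were above 0 FPKM, against 3.32% to 6.58% in the other 6 libraries. Read counts are not given and the depth is unknown. A rough estimate from the steps between low values put the other libraries at 12.1% to 65.5% of the depth of AE9a+Meis2 replicate 2. The lowest were AE9a replicate 1 at 12.1% and AE+Meis2 replicate 2 at 14.9%.

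All 9 genes were above 1 FPKM in each of the 8 libraries, the lowest value being 2.05 FPKM of Erg, so all passed the filter of at least 1 FPKM in at least 2 libraries that left 12565 genes to test. Lyl1 shares exon sequence with Nfix on the opposite strand (2.56 to 7.39 FPKM) and Ldb1 with Pprc1 (7.75 to 15.3 FPKM). No source used here says whether the counting used strand, so reads of these overlaps cannot be assigned with certainty. The other 7 genes overlap no other gene's exons.

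The genes that varied most between libraries were Erg, Tal1, Gata2 and Lyl1. The DNA in front of their start sites is given here to show which letters there match E-box, GATA, ETS and RUNX motifs. Each line runs 5′ to 3′ on the gene's strand from 250 to 51 bases before a RefSeq start site (GRCm38.p6), the outermost 5′ one with a window. Tal1 and Gata2 had 2 windows each and Erg 3, so their other start sites are not printed. Capitals mark matches on either strand to the E-box CANNTG, the GATA motif GATAA, the ETS motif GGAAG and the RUNX motif TGNGGT. The windows are chr4:115056176-115056375 (plus strand) for Tal1, chr6:88193641-88193840 (plus) for Gata2, chr8:84701207-84701406 (plus) for Lyl1 and chr16:95586644-95586843 (minus) for Erg.
Tal1: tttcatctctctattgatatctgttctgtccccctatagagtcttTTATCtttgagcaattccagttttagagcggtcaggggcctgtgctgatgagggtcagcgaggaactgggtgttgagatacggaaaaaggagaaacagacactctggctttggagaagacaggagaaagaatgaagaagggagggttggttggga
Gata2: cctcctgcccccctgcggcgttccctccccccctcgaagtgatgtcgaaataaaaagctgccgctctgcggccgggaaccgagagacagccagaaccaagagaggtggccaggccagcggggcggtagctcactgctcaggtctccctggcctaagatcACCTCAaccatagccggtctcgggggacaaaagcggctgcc
Lyl1: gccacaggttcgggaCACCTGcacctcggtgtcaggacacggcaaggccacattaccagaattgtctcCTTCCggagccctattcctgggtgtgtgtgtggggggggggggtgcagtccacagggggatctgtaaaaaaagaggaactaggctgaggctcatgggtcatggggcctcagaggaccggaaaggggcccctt
Erg: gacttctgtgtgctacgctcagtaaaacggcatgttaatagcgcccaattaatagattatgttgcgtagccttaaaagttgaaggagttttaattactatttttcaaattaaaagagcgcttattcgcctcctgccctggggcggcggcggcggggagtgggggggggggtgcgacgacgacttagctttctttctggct

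The Tal1 window holds 1 GATA match at -205 from the start site and the Gata2 window 1 RUNX match at -91. The Lyl1 window holds an E-box at -235 and an ETS match at -182, and the printed Erg window holds no match. No 2 matches overlap. Windows were found for 7 of the 9 genes, with alternative start sites 15 in all, and none for Lmo2 and Fli1. Of these 15 windows 5 held an E-box, 3 a GATA match, 7 an ETS match and 3 a RUNX match. Among all 32851 windows of this length, 59.0% held an E-box, 19.3% a GATA match, 55.0% an ETS match and 34.1% a RUNX match. The composite of an E-box and GATA at a distance of 6 to 10 bases, which the TAL1-LMO2-LDB1-GATA complex is known to bind in red cell precursors, was in 0 of the 15 windows and in 1.94% of all. A match is a run of letters and not a binding site.

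None of the 9 genes differed between groups past the threshold. limma, fitted on log2(FPKM + 1) over all 8 libraries with Benjamini-Hochberg adjustment over the genes tested, called 0 of 9 in each comparison and 0 of 9 over the 3 groups together. Over all genes it called 0.0478% for AE9a+Meis2 against AE9a, 0.0398% for AE+Meis2 against AE9a+Meis2, 0.0318% for AE+Meis2 against AE9a and 0.0557% for any difference among the 3 groups. At an unadjusted p under 0.05, it marked 1 of the 9 genes, Ldb1, in both comparisons with AE9a and over the 3 groups, and 0 of the 9 between AE+Meis2 and AE9a+Meis2. Of all genes tested, such a p was given to 3.06% for AE9a+Meis2 against AE9a, 5.98% for AE+Meis2 against AE9a, 5.71% over the 3 groups and 7.15% for AE+Meis2 against AE9a+Meis2. The libraries of both groups did not overlap for 3 of the 9 genes in AE9a+Meis2 against AE9a (Ldb1, Tal1 and Gata2, lower in AE9a+Meis2), where 23.8% of all genes did not overlap. In AE+Meis2 against AE9a+Meis2 the groups overlapped for all 9 genes (13.5% of all genes did not), and in AE+Meis2 against AE9a they were separate for Ldb1 alone (18.6% of all genes). The first and the last comparison share the AE9a libraries, and each shares its other group with the comparison of AE+Meis2 and AE9a+Meis2. The values of the comparisons are therefore not independent. The median log2 difference of the 9 genes was -0.15 for AE9a+Meis2 against AE9a, 0.03 for AE+Meis2 over AE9a+Meis2 and 0.01 for AE+Meis2 over AE9a, beside -0.00, 0.04 and 0.06 over all genes tested.

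**Figure D1:**
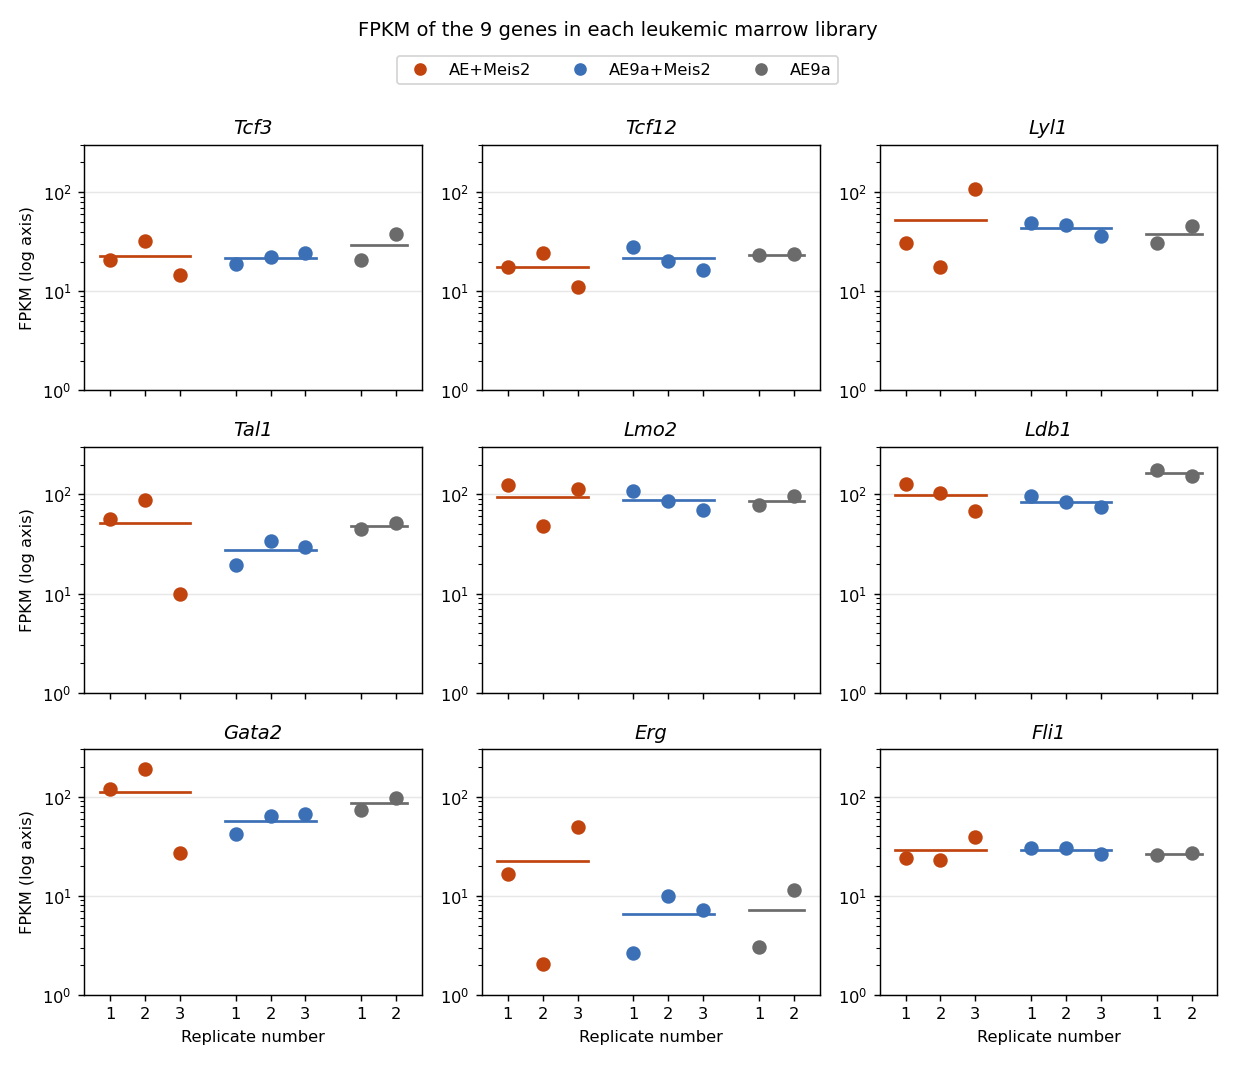
FPKM of the 9 genes on a log axis in each of the 8 libraries, with AE+Meis2 left of AE9a+Meis2 and AE9a and a horizontal line at each group's mean. The 3 AE+Meis2 libraries lie far apart for Erg (2.05 to 48.9 FPKM), Tal1 (9.81 to 87.2), Gata2 (26.7 to 189) and Lyl1 (17.8 to 109), while Fli1 lies between 23.2 and 39.0 FPKM in all 8.

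The E proteins were expressed in all 8 libraries, at overlapping levels in the 3 groups. Tcf12 (HEB; chromosome 9, 71844252 to 72111893) was at 17.6, 24.5 and 11.1 FPKM in AE+Meis2, at 27.8, 20.4 and 16.4 FPKM in AE9a+Meis2, with 23.2 and 23.6 FPKM in AE9a. The groups overlap, and the lowest value is AE+Meis2 replicate 3. The log2 difference of Tcf12 was -0.15 ± 0.35 in AE9a+Meis2 against AE9a (95% interval -0.97 to 0.68), -0.30 ± 0.31 for AE+Meis2 over AE9a+Meis2 and -0.45 ± 0.35 for AE+Meis2 over AE9a (limma, ± SE). Without AE+Meis2 replicate 3 the last 2 differences were -0.017 and -0.16, without AE+Meis2 replicate 2 they were -0.56 and -0.70, and after rescaling without small RNAs -0.55 and -0.82. Without AE9a+Meis2 replicate 1 or replicate 3, Tcf12 differed by -0.11 or -0.47 for AE+Meis2 over AE9a+Meis2. Tcf3 (E2A, which gives the isoforms known as E12 and E47; chromosome 10, 80409541 to 80433976) was at 20.5, 32.3 and 14.8 FPKM in AE+Meis2, at 18.8, 22.3 and 24.3 FPKM in AE9a+Meis2, with 20.8 and 38.0 FPKM in AE9a. Here too the groups overlap, with AE+Meis2 replicate 3 lowest and AE9a replicate 2 highest. On the log2 scale Tcf3 differed by -0.36 ± 0.38, -0.02 ± 0.34 and -0.38 ± 0.38 in the same order of comparisons. The differences of Tcf3 from AE9a rested on which AE9a library was used: without AE9a replicate 1 they were -0.78 for AE9a+Meis2 and -0.80 for AE+Meis2, and without AE9a replicate 2 they were 0.061 and 0.043. Gene-level FPKM does not separate the E12 and E47 isoforms of Tcf3.

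The bHLH partners of the E proteins varied more between libraries than between groups. Lyl1 (chromosome 8, 84701423 to 84704716), a factor of stem and lymphoid progenitor cells, was at 30.7, 17.8 and 109 FPKM in AE+Meis2, at 49.1, 46.8 and 36.0 FPKM in AE9a+Meis2, with 30.4 and 45.7 FPKM in AE9a. AE+Meis2 replicate 3 is the highest of the 8 libraries and AE+Meis2 replicate 2 the lowest, so the AE+Meis2 values span those of both other groups. The log2 difference of Lyl1 was 0.22 ± 0.67 in AE9a+Meis2 against AE9a, -0.15 ± 0.60 for AE+Meis2 over AE9a+Meis2 and 0.07 ± 0.67 for AE+Meis2 over AE9a. Tal1 (chromosome 4, 115056426 to 115071755), needed for blood formation and for the red cell and platelet lineages, was at 55.9, 87.2 and 9.81 FPKM in AE+Meis2, at 19.5, 33.9 and 29.7 FPKM in AE9a+Meis2, with 44.4 and 51.9 FPKM in AE9a. Every AE9a+Meis2 library lies below both AE9a libraries, while AE+Meis2 holds the 2 highest values and the lowest. The log2 difference of Tal1 was -0.81 ± 0.80 in AE9a+Meis2 against AE9a (95% interval -2.69 to 1.08; limma adjusted p = 1), 0.44 ± 0.72 for AE+Meis2 over AE9a+Meis2 and -0.37 ± 0.80 for AE+Meis2 over AE9a. Without AE+Meis2 replicate 3, the Tal1 difference of AE+Meis2 over AE9a+Meis2 was 1.34 and that of Lyl1 was -0.87.

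Of the adaptors, Ldb1 was lower in AE+Meis2 and in AE9a+Meis2 than in AE9a, with no call in either comparison. The Lmo2 libraries of the 3 groups overlapped. Ldb1 (chromosome 19, 46031525 to 46048145) was at 127, 103 and 68.7 FPKM in AE+Meis2, at 95.7, 84.5 and 74.2 FPKM in AE9a+Meis2, with 176 and 152 FPKM in AE9a. Both AE9a libraries lie above all 6 libraries of the other groups, and AE+Meis2 and AE9a+Meis2 overlap. Of all genes tested, 23.8% did not overlap in AE9a+Meis2 against AE9a and 18.6% in AE+Meis2 against AE9a. Ldb1 averaged 84.8 ± 10.8 FPKM in AE9a+Meis2 (SD, n = 3) and 164 ± 17.0 FPKM in AE9a (SD, n = 2), a log2 difference of -0.95 ± 0.28 with a 95% interval of -1.60 to -0.30 (limma adjusted p = 1). It averaged 99.7 ± 29.4 FPKM in AE+Meis2 (SD, n = 3), a log2 difference to AE9a of -0.76 ± 0.28 with a 95% interval of -1.41 to -0.10 (limma adjusted p = 0.77). The log2 difference of AE+Meis2 over AE9a+Meis2 was 0.19 ± 0.25. Without the library labelled AE+Meis2 replicate 1 this difference was -0.0029 and that of AE+Meis2 over AE9a was -0.95. Without AE9a+Meis2 replicate 3 and AE9a replicate 1, the libraries with values in silent families, Ldb1 differed by -0.75 for AE9a+Meis2 and by -0.65 for AE+Meis2 over the remaining AE9a library. For AE9a+Meis2 over AE9a without these libraries, Tal1 differed by -0.98, Gata2 by -0.89, Erg by -0.98 and Tcf3 by -0.86. Rescaling FPKM without small RNAs moved the median of all genes by -0.11 for AE9a+Meis2 against AE9a, by -0.23 for AE+Meis2 over AE9a+Meis2 and by -0.35 for AE+Meis2 against AE9a. Relative to those medians Ldb1 then differed by -0.96, 0.13 and -0.84. Ldb1 was the gene with the smallest F-test p of the 9 (limma adjusted p = 0.78). Summed markers of endothelium, a cell type that also uses TAL1, LMO2, ERG and FLI1, were at 122, 47.3 and 59.7 FPKM in AE+Meis2, at 54.9, 53.1 and 54.2 FPKM in AE9a+Meis2, with 148 and 162 FPKM in AE9a (7 of 7 markers). Its defining markers Cdh5 and Kdr were below 1 FPKM in all 8 libraries, and most of the sum came from Fabp4, Egfl7 and Pecam1. The part of these markers in the Ldb1 difference was not tested.

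Lmo2 (chromosome 2, 103957903 to 103981878), the LIM-only bridge of the complex, was at 124, 48.1 and 113 FPKM in AE+Meis2, at 109, 85.2 and 69.2 FPKM in AE9a+Meis2, with 77.8 and 95.7 FPKM in AE9a. The groups overlap, and the lowest value, less than in any other library, is AE+Meis2 replicate 2. The log2 difference of Lmo2 was -0.00 ± 0.42 in AE9a+Meis2 against AE9a, with a 95% interval of -0.99 to 0.99. A change of nearly that size could not be seen with these libraries. The interval is not adjusted for the number of genes tested, so a larger change could also miss the threshold. The Lmo2 difference was 0.03 ± 0.38 for AE+Meis2 over AE9a+Meis2 and 0.03 ± 0.42 for AE+Meis2 over AE9a.

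Gata2 (chromosome 6, 88193891 to 88207032), a factor of stem cells, early progenitors and mast cells, followed Tal1 from library to library. It was at 120, 189 and 26.7 FPKM in AE+Meis2, at 42.0, 63.4 and 66.6 FPKM in AE9a+Meis2, with 73.9 and 96.9 FPKM in AE9a. Every AE9a+Meis2 library lies below both AE9a libraries, and AE+Meis2 holds the 2 highest values and the lowest. On the log2 scale Gata2 differed by -0.58 ± 0.74 in AE9a+Meis2 against AE9a (95% interval -2.31 to 1.15; limma adjusted p = 1). It was 0.59 ± 0.66 for AE+Meis2 over AE9a+Meis2 and 0.01 ± 0.74 for AE+Meis2 over AE9a. Without AE+Meis2 replicate 3 the difference of AE+Meis2 over AE9a+Meis2 was 1.41, with a limma adjusted p of 0.22 (over the alternatives run for Gata2 in this comparison, 0.22 to 1), and without AE+Meis2 replicate 2 it was 0.02. The other 6 mast cell and basophil markers summed to 3148, 1170 and 1282 FPKM in AE+Meis2, to 655, 1604 and 1188 FPKM in AE9a+Meis2, with 1045 and 2211 FPKM in AE9a. The library with the most Gata2, AE+Meis2 replicate 2, had 4.65 FPKM of Ms4a2 and 7.79 FPKM of Hdc, the lowest of the 8 for both, and 1005 FPKM of Cpa3.

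Of the ETS factors, Erg had the widest spread of the 9 genes and Fli1 the narrowest. Erg (chromosome 16, 95359169 to 95586600), a stem cell factor whose excess marks some human leukemias, was at 16.5, 2.05 and 48.9 FPKM in AE+Meis2, at 2.64, 9.82 and 7.19 FPKM in AE9a+Meis2, with 3.01 and 11.4 FPKM in AE9a. AE+Meis2 holds the lowest value and the 2 highest, and AE9a+Meis2 lies almost wholly inside the range of AE9a. On the log2 scale Erg differed by -0.04 ± 1.13 in AE9a+Meis2 against AE9a, 1.01 ± 1.01 for AE+Meis2 over AE9a+Meis2 (95% interval -1.37 to 3.39) and 0.98 ± 1.13 for AE+Meis2 over AE9a. Without AE+Meis2 replicate 2 the difference of AE+Meis2 over AE9a+Meis2 was 2.11, and without AE+Meis2 replicate 3 it was 0.09. The Erg difference of AE+Meis2 over AE9a was 2.07 without AE+Meis2 replicate 2, 0.053 without AE+Meis2 replicate 3, 0.17 without AE9a replicate 1 and 1.79 without AE9a replicate 2. Fli1 (chromosome 9, 32422204 to 32543432), the closest relative of Erg, was at 24.2, 23.2 and 39.0 FPKM in AE+Meis2, at 30.5, 30.1 and 26.6 FPKM in AE9a+Meis2, with 25.8 and 26.7 FPKM in AE9a. Its groups overlap and AE+Meis2 replicate 3 is the highest. On the log2 scale Fli1 differed by 0.14 ± 0.25, -0.05 ± 0.23 and 0.09 ± 0.25 in the same order of comparisons.

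**Figure D2:**
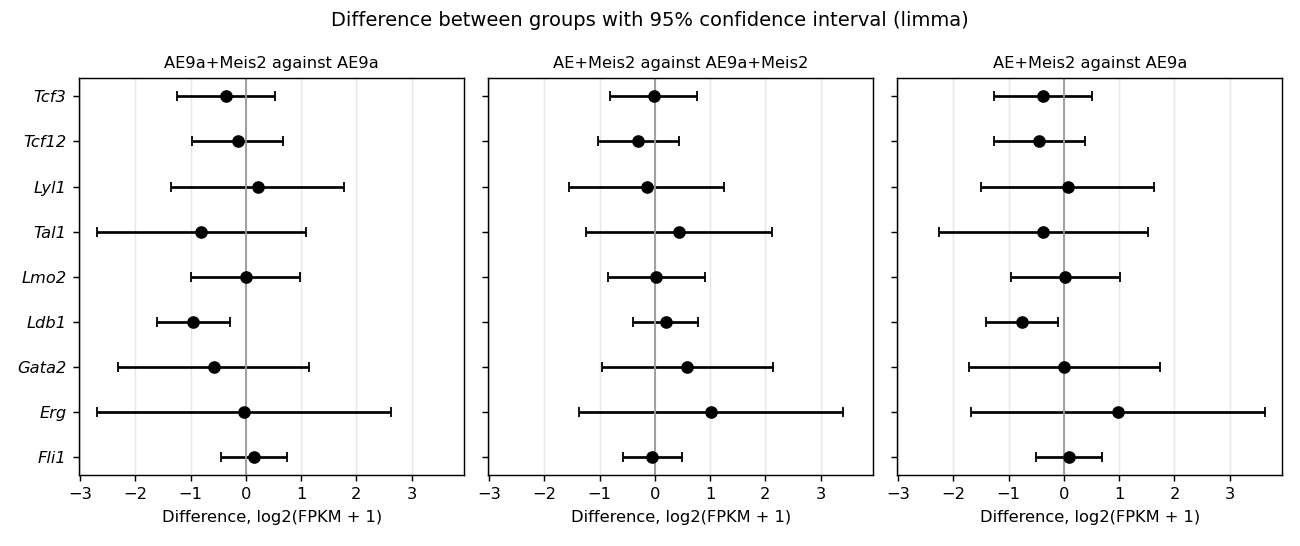
Difference of the 9 genes on the log2(FPKM + 1) scale in the 3 comparisons, with 95% intervals from limma. Only the intervals of Ldb1 against AE9a leave out 0 (-1.60 to -0.30 for AE9a+Meis2, -1.41 to -0.10 for AE+Meis2), and neither passed after adjustment.

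By FPKM, which scales by transcript length, Ldb1, Lmo2 and Gata2 were the most abundant of the 9 in most libraries. Ldb1 ranked first in 4 libraries and Lmo2 in 3, and Gata2 ranked first in AE+Meis2 replicate 2. Erg ranked last in 7 of the 8 libraries and in place 4 in AE+Meis2 replicate 3, where Tal1 ranked last. Tcf12 and Tcf3 took places 5 to 8 in every library. The order of Tcf12 and Tcf3 changed between libraries, and their ranges over the 8 libraries overlap, at 11.1 to 27.8 FPKM for Tcf12 and 14.8 to 38.0 FPKM for Tcf3.

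The largest contrasts among these genes lay inside the AE+Meis2 group. Replicates 2 and 3, the AE+Meis2 libraries with the most Runx1t1, were set against each other after their values had been seen, as a description with no test. Erg was 23.9-fold higher in replicate 3 than in replicate 2, a log2 difference of 4.03 that exceeded 97.6% of all genes tested. In replicate 2 Erg was at only 2.05 FPKM, and the rough estimate put that library at 14.9% of the depth of AE9a+Meis2 replicate 2, and replicate 3 at 39.8%. Lyl1 was 6.11-fold higher in replicate 3 (more than 92.4% of genes), Lmo2 2.36-fold and Fli1 1.68-fold. Tal1 was 8.89-fold lower in replicate 3 than in replicate 2 (more than 94.9% of genes) and Gata2 7.07-fold lower (more than 93.6% of genes). Tcf12, Tcf3 and Ldb1 were 2.21-fold, 2.19-fold and 1.501-fold lower. The median absolute log2 difference of all genes between these libraries was 0.57.

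Markers of other cell types were also far apart in AE+Meis2 replicates 2 and 3, though over all 8 libraries their order did not follow that of the 9 genes throughout. Summed neutrophil markers (7 of 7) were at 15251, 1637 and 166631 FPKM in AE+Meis2, at 1840, 13309 and 34362 FPKM in AE9a+Meis2, with 4570 and 18170 FPKM in AE9a. AE+Meis2 replicate 3, with the most Erg and Lyl1, was highest for summed neutrophil markers, and AE+Meis2 replicate 2, with the least, was lowest. S100a8 alone made 131098 FPKM of the sum in AE+Meis2 replicate 3. Single markers did not all follow the sum. Prtn3 was highest in AE9a+Meis2 replicate 2 (724 FPKM). Mpo was lowest in AE9a replicate 1 (117 FPKM), and Ltf and S100a8 in AE9a+Meis2 replicate 1 (10.1 and 566 FPKM). Elane, Camp and Ngp had the same highest and lowest libraries as the sum. AE9a+Meis2 replicate 3 had the next highest neutrophil sum, with 7.19 FPKM of Erg and 36.0 FPKM of Lyl1. Megakaryocyte markers (7 of 7) were at 104, 373 and 17.5 FPKM in AE+Meis2, at 17.4, 19.1 and 23.9 FPKM in AE9a+Meis2, with 25.9 and 34.4 FPKM in AE9a. AE+Meis2 replicate 2, with the most Tal1 and Gata2, was highest. Of the megakaryocyte sum in AE+Meis2 replicate 2, Itga2b made 255 FPKM and Pf4 82.4 FPKM, while Gp9 and Vwf were at 11.1 and 7.58 FPKM. Erythroid markers (8 of 8) were at 4393, 1805 and 469 FPKM in AE+Meis2, at 1043, 2895 and 2382 FPKM in AE9a+Meis2, with 1337 and 2254 FPKM in AE9a. AE+Meis2 replicate 3, with the least Tal1, was lowest, and the library labelled AE+Meis2 replicate 1 was highest. Monocyte and macrophage markers (7 of 7) ran between 288 and 650 FPKM in AE+Meis2, between 615 and 1986 FPKM in AE9a+Meis2 and between 419 and 438 FPKM in AE9a. Of the highest sum, in AE9a+Meis2 replicate 1, Ly6c2 made 1573 FPKM. B cell markers (5 of 6 in the table) stayed at or below 71.4 FPKM and T cell markers (5 of 6) at or below 42.0 FPKM in all libraries, both highest in AE9a+Meis2 replicate 3. Stem and progenitor markers (7 of 7) ran between 109 and 241 FPKM in AE+Meis2, between 74.7 and 127 FPKM in AE9a+Meis2 and between 94.97 and 172 FPKM in AE9a. The part of these cell types in the values of the 9 genes was not tested.

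**Figure D3:**
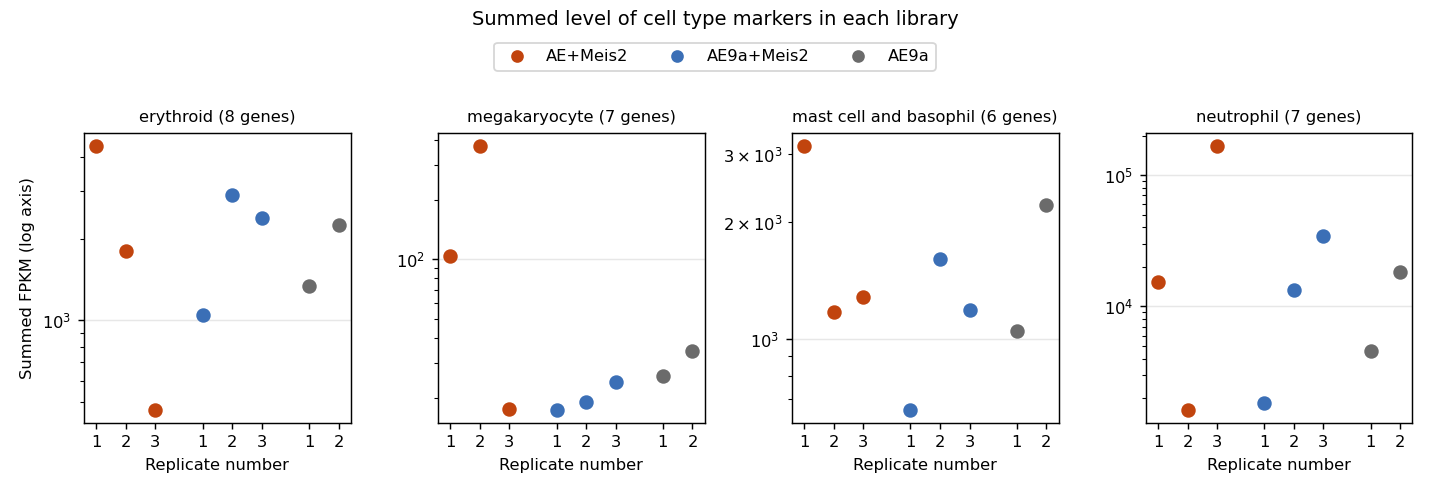
Summed FPKM of erythroid, megakaryocyte, mast cell and basophil, and neutrophil markers in the 8 libraries, on a log axis. Neutrophil markers reach 166631 FPKM in AE+Meis2 replicate 3 and stand at 1637 FPKM in AE+Meis2 replicate 2, where megakaryocyte markers stand at 373 FPKM.

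Set against the spread inside groups of all genes tested, the within-group SD of Erg on the log2 scale was larger than that of 96.7% of genes, of Tal1 91.5%, of Gata2 89.4% and of Lyl1 86.7%. Lmo2, Tcf3 and Tcf12 stood in the middle, at 67.6%, 59.8% and 55.1%. Ldb1 at 38.5% and Fli1 at 28.2% were steadier than most genes. This order is a description of these libraries and largely restates the values of AE+Meis2.

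**Figure D4:**
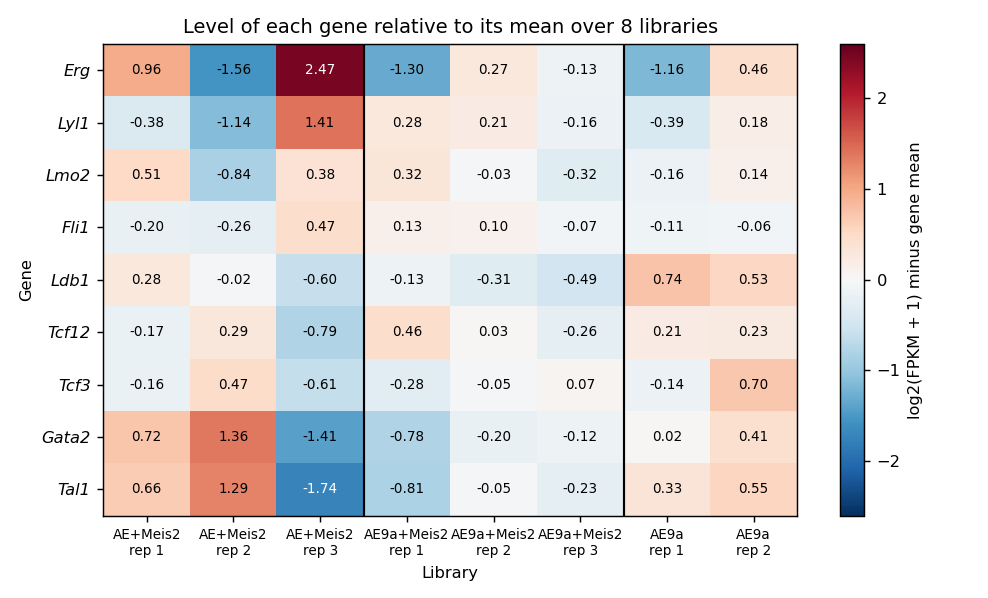
Each gene's log2(FPKM + 1) in the 8 libraries minus its own mean over them. Tal1 and Gata2 move together, at 1.29 and 1.36 in AE+Meis2 replicate 2 and -1.74 and -1.41 in replicate 3, while Erg stands at -1.56 and 2.47 in these libraries.

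Profiles over the 8 libraries, each centred on its mean, were compared by the root mean square of their differences on the log2 scale. The closest pair of the 9 was Tal1 and Gata2 at 0.18, followed by Lmo2 and Fli1 at 0.36 and Tcf12 and Tcf3 at 0.37, and the farthest was Erg and Tal1 at 1.89. Of 11439 genes compared, Akap2 and Gata2 were nearest to Tal1, Tal1 and Slc18a2 to Gata2, Tagap and Mcee to Lyl1, and Vegfa and Oosp1 to Erg. Vegfa, a vessel growth factor, was at 16.4, 2.52 and 56.0 FPKM in AE+Meis2, at 3.85, 11.99 and 8.99 FPKM in AE9a+Meis2, with 4.81 and 6.52 FPKM in AE9a. Slc18a2, the vesicular monoamine transporter, was at 69.0, 86.9 and 17.5 FPKM in AE+Meis2, at 19.1, 37.0 and 30.4 FPKM in AE9a+Meis2, with 38.1 and 60.1 FPKM in AE9a. Ldb1 had Twsg1 and Armcx1 nearest to it, Lmo2 had Slc25a25 and Ube2s, Tcf12 had Polrmt and Zfp512, Tcf3 had Pygb and Chpf, and Fli1 had Lbr and Mcmbp. A steady gene such as Fli1 finds near neighbours more easily than a variable one.

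Because E proteins can pair with either LYL1 or TAL1, the balance of these genes within a library was also compared. The ratio of Lyl1 to Tal1 FPKM was 0.549, 0.204 and 11.1 in AE+Meis2, 2.51, 1.38 and 1.21 in AE9a+Meis2 and 0.686 and 0.882 in AE9a. Lyl1 exceeded Tal1 in all 3 AE9a+Meis2 libraries and in neither AE9a library, and AE+Meis2 held both extremes. On the log2(FPKM + 1) scale, Lyl1 minus Tal1 averaged 0.09 ± 2.90 in AE+Meis2, 0.67 ± 0.54 in AE9a+Meis2 and -0.35 ± 0.25 in AE9a (SD). An exact permutation test of the F statistic over the 560 groupings of the libraries gave p = 0.83 (adjusted p = 0.83 over 2 balances). AE+Meis2 replicate 3, which holds the highest ratio, decides this result. Without it the adjusted p of the exact permutation test was 0.019, and without any other single library it was up to 0.98. Without AE+Meis2 replicate 3, the p before adjustment was the smallest this test can give with so few libraries. The AE+Meis2 libraries left include the one labelled replicate 1, so no difference is read from that value. The ratio of Tcf3 to Tcf12 was 1.16, 1.32 and 1.33 in AE+Meis2, 0.678, 1.09 and 1.48 in AE9a+Meis2 and 0.894 and 1.61 in AE9a, with p = 0.75 by the same exact permutation test (adjusted p = 0.83).

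**Figure D5:**
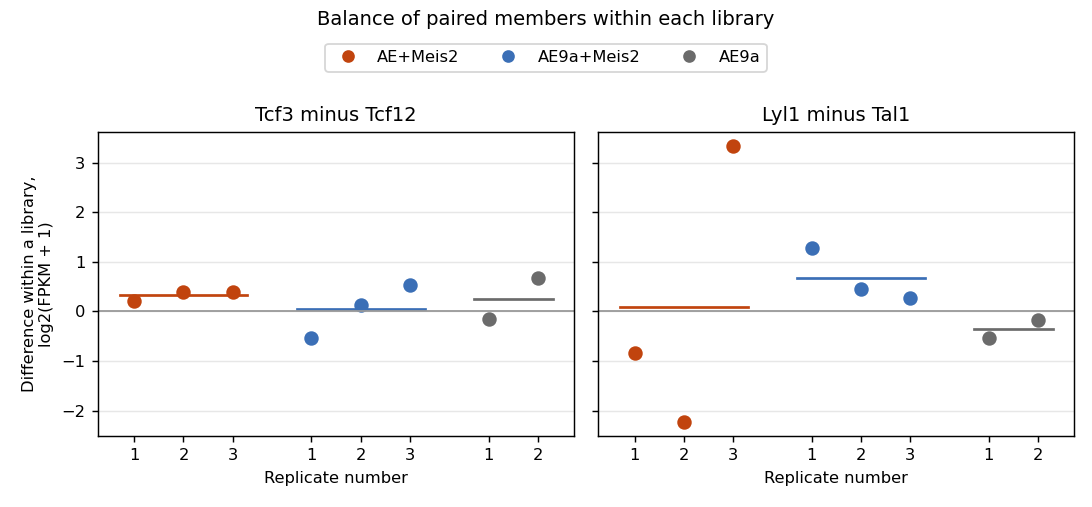
Lyl1 minus Tal1 and Tcf3 minus Tcf12 within each library, as differences of log2(FPKM + 1), with a line at each group's mean. Lyl1 minus Tal1 is positive in the 3 AE9a+Meis2 libraries and negative in both AE9a libraries, and runs between -2.23 and 3.34 in AE+Meis2.

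Other genes of the same pathway were followed in 6 lists, in which 0 genes passed the threshold in any comparison. Among partners and antagonists of E proteins (5 of 6 tested), all 5 were positive in AE9a+Meis2 against AE9a. All 5 were negative in AE+Meis2 against AE9a+Meis2, and 4 were positive in AE+Meis2 against AE9a. The AE9a+Meis2 libraries stand on opposite sides of the comparisons with all 5 of the same sign, so those counts are not independent. The median log2 differences of these genes were 0.19, -0.30 and 0.08, beside -0.00, 0.04 and 0.06 over all genes tested. Tcf4, the E protein E2-2, was at 8.39, 3.83 and 7.02 FPKM in AE+Meis2, at 10.4, 6.74 and 8.60 FPKM in AE9a+Meis2, with 4.83 and 3.43 FPKM in AE9a. It was above both AE9a libraries in all 3 AE9a+Meis2 libraries (log2 0.89 ± 0.35, limma adjusted p = 1), where 23.8% of all genes tested did not overlap. Id1, which sequesters E proteins, was at 10.7, 1.26 and 41.4 FPKM in AE+Meis2, at 20.3, 13.0 and 9.97 FPKM in AE9a+Meis2, with 6.49 and 11.9 FPKM in AE9a. Id2 had its lowest value of 59.6 FPKM in AE+Meis2 replicate 2 and its highest of 244 FPKM in AE+Meis2 replicate 3. Id3 stayed at or below 1.79 FPKM.

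Among LIM and LDB1 adaptors (8 of 9 tested), 3, 5 and 4 were positive and 5, 3 and 4 negative in the comparisons in that order, with medians of -0.11, 0.12 and -0.15. Lmo1, a LIM-only relative of Lmo2, was at 4.81, 1.66 and 13.5 FPKM in AE+Meis2, at 6.23, 16.9 and 10.3 FPKM in AE9a+Meis2, with 5.22 and 1.46 FPKM in AE9a (log2 1.54 ± 0.76 for AE9a+Meis2 over AE9a, adjusted p = 1 by limma). Ssbp2 and Ssbp4, whose products bind and stabilise LDB1, showed opposite orders in AE+Meis2, with 5.52, 11.6 and 2.93 FPKM of Ssbp2 and 23.6, 9.68 and 27.2 FPKM of Ssbp4. Cbfa2t2, a relative of the ETO gene, was highest in AE+Meis2 replicate 2 at 14.1 FPKM and between 5.52 and 9.77 FPKM elsewhere.

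Among the other heptad, GATA and ETS factors (11 of 11 tested), 5, 6 and 4 were positive and 6, 5 and 7 negative in the same comparisons, with medians of -0.11, 0.04 and -0.21. Gata1, which takes over from Gata2 in red cell precursors, was at 49.3, 22.6 and 7.90 FPKM in AE+Meis2, at 17.0, 43.2 and 43.5 FPKM in AE9a+Meis2, with 46.0 and 73.0 FPKM in AE9a. Its largest log2 difference was -1.43 ± 0.73 for AE+Meis2 over AE9a (limma adjusted p = 0.92). Gata3 was low, at 1.45, 1.55 and 0.845 FPKM in AE+Meis2, at 2.16, 3.47 and 4.28 FPKM in AE9a+Meis2, with 2.37 and 9.62 FPKM in AE9a. The AE+Meis2 libraries lay below all others for Gata3 (log2 -1.40 ± 0.50 against AE9a, limma adjusted p = 0.72). Of all genes tested, 18.6% did not overlap in AE+Meis2 against AE9a and 13.5% in AE+Meis2 against AE9a+Meis2. Runx1, part of both fusions, was at 23.1, 42.0 and 31.6 FPKM in AE+Meis2, at 27.7, 43.4 and 39.6 FPKM in AE9a+Meis2, with 42.9 and 71.1 FPKM in AE9a, where reads of the transduced fusion and of the mouse gene cannot be told apart. Elf1 lay between 54.1 and 115 FPKM.

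Among erythroid targets of the TAL1-LMO2-LDB1 complex (11 of 11 tested), 5, 5 and 2 were positive and 6, 6 and 9 negative, with medians of -0.18, -0.07 and -0.38. Klf1, a master factor of red cells, was at 14.1, 9.26 and 2.66 FPKM in AE+Meis2, at 5.95, 13.9 and 13.4 FPKM in AE9a+Meis2, with 15.5 and 31.2 FPKM in AE9a. AE+Meis2 and AE9a+Meis2 both lay below AE9a (log2 -1.48 ± 0.65 and -1.01 ± 0.65, limma adjusted p = 0.84 and 1). In these comparisons 18.6% and 23.8% of all genes tested did not overlap. Ank1, of the red cell skeleton, was at 18.02, 1.503 and 1.25 FPKM in AE+Meis2, at 8.34, 10.6 and 12.2 FPKM in AE9a+Meis2, with 12.6 and 26.3 FPKM in AE9a. Nfe2, of the red cell and platelet lineages, differed by a log2 of 0.99 ± 0.46 for AE+Meis2 over AE9a (limma adjusted p = 0.88).

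Among stem and progenitor targets (9 of 9 tested), 4, 7 and 6 were positive and 5, 2 and 3 negative, with medians of -0.08, 0.32 and 0.24. Cd34 was at 51.5, 8.09 and 32.5 FPKM in AE+Meis2, at 12.6, 22.8 and 5.21 FPKM in AE9a+Meis2, with 8.22 and 24.1 FPKM in AE9a. Myb lay between 25.7 and 159 FPKM and Hhex between 48.6 and 104 FPKM.

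Among lymphoid targets of E proteins, only 6 of 11 passed the filter, and 4, 4 and 2 were positive and 2, 2 and 4 negative, with medians of 0.08, 0.04 and -0.02. Notch1, which directs T cell fate, was at 4.76, 2.04 and 21.0 FPKM in AE+Meis2, at 15.5, 10.7 and 13.0 FPKM in AE9a+Meis2, with 6.47 and 6.50 FPKM in AE9a. Cdkn1a, the cell cycle inhibitor p21, was at 83.4, 15.0 and 13.5 FPKM in AE+Meis2, at 48.4, 50.2 and 77.6 FPKM in AE9a+Meis2, with 30.2 and 40.2 FPKM in AE9a. Notch1 and Cdkn1a both lay above AE9a in all 3 AE9a+Meis2 libraries, with log2 differences of 0.90 ± 0.73 and 0.70 ± 0.73 that limma did not call (adjusted p = 1 for each). In this comparison the groups did not overlap for 23.8% of all genes tested. Il7r lay between 2.82 and 13.2 FPKM and Foxo1 between 2.40 and 5.41 FPKM.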

How the data were processed

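RNA was prepared with TRIzol and sequenced from Illumina TruSeq RNA version 2 libraries, per the labels' protocols. The authors deposited FPKM values for 23997 genes in 8 libraries. Per the submitters' processing notes, the tools were TopHat, Cufflinks and Cuffdiff and the build was mm10; no source used here gives versions, settings or the annotation. FPKM holds no counts, so the depth is unknown and counting error is not given, and very short transcripts take unsteady values.

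Sample titles gave the groups and replicate numbers. FPKM was taken to log2(FPKM + 1), which understates changes of low genes. The 12565 genes with at least 1 FPKM in at least 2 libraries were tested with limma 3.58.1 in R 4.3.3, with 1 coefficient per group over all 8 libraries and an intensity trend. P-values are two-sided and adjusted by the Benjamini-Hochberg method over all genes tested, with a threshold of 0.05. The script was tested on simulated data. Balances within a library were tested by exact permutation over libraries. Alternatives were the pseudocount, the filter on low values, the scaling, the variance model, the libraries in the fit and a replicate block.

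The 9 genes and the lists were chosen with earlier results of these data known. The text names all 9 genes, Meis2, Runx1t1 and Runx1, up to 4 genes of each list with the smallest F-test p, the 2 genes with the profile most like each of the 9 (small RNAs, predicted genes and receptor segments left out), and defining markers of other cell types. A few genes under this rule are left unreported, but list counts and marker sums include them. Coordinates and promoter windows are those of RefSeq (GRCm38.p6). Python 3.11.15, pandas 2.3.3, NumPy 2.4.6, SciPy 1.17.1 and matplotlib 3.10.9 made the tables and figures.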

Additional observations from a re-analysis of the deposited data

How the results depend on the processing

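In each of the 18 alternatives per comparison, 0 of the 9 genes passed the threshold. Over these, Ldb1 lay between -1.14 and -0.75 in AE9a+Meis2 against AE9a and between -1.14 and -0.51 in AE+Meis2 against AE9a; other filters, variance models and libraries of the third group leave a fitted difference as it is by construction. Over all genes limma called 6 for AE9a+Meis2 against AE9a, 5 between AE+Meis2 and AE9a+Meis2, 4 in AE+Meis2 against AE9a and 7 over the 3 groups. With every gene above 0 tested, AE+Meis2 against AE9a had 1 call. With only the 2 groups' libraries it had 2. Rescaling without small RNAs gave 14 calls in AE+Meis2 against AE9a+Meis2, 4 higher and 10 lower against 4 higher and 1 lower as deposited, and 11 over the 3 groups. Without both libraries that have values in silent gene families, AE9a+Meis2 against AE9a had 3 calls. Leaving out 1 library at a time gave 2 to 9 calls for AE9a+Meis2 against AE9a, 6 to 23 between AE+Meis2 and AE9a+Meis2, 1 to 10 in AE+Meis2 against AE9a and 6 to 21 over the 3 groups, and the highest count was in each case the one without AE+Meis2 replicate 3. The lowest counts against AE9a were those without AE9a replicate 1 (2 calls for AE9a+Meis2, 1 for AE+Meis2) and, for AE+Meis2, also without the library labelled AE+Meis2 replicate 1.

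Replicate numbers only name libraries: same-numbered libraries of different groups correlated at -0.03 to 0.13 in their deviations from the group means, and the labels tie no number to an animal. With the replicate block, limma called 2 genes for AE9a+Meis2 against AE9a, 0 for AE+Meis2 against AE9a and 3 over the 3 groups. Under the block, Tcf12 was at 0.080 and Lyl1 at -0.077 for AE9a+Meis2 against AE9a, and Lyl1 at -0.22 and Tal1 at 0.048 in AE+Meis2 against AE9a. For AE9a+Meis2 over AE9a the block put Tal1 at -0.39, against -0.81 without it, Gata2 at -0.23, against -0.58, and Erg at -0.56, against -0.04. For AE+Meis2 over AE9a it put Tcf12 at -0.22, against -0.45, and Erg at 0.45, against 0.98.

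The signs that turned were those of differences smaller than, or about equal to, their standard errors, and the cause was not tested. Quantile normalization turned Lmo2 to -0.16 in AE+Meis2 against AE9a+Meis2, and Lyl1 to -0.16, Lmo2 to -0.31, Gata2 to -0.21 and Fli1 to -0.087 in AE+Meis2 against AE9a. Rescaling turned Lmo2 to -0.23 and Ldb1 to -0.063 in AE+Meis2 against AE9a+Meis2, and Lyl1 to -0.31, Lmo2 to -0.35, Gata2 to -0.37 and Fli1 to -0.28 in AE+Meis2 against AE9a. Without both silent-family libraries, Tcf12 was at 0.013 and Lmo2 at 0.0078 for AE9a+Meis2 against AE9a, Tcf3 at 0.062 and Lmo2 at -0.13 for AE+Meis2 over AE9a+Meis2, and Lyl1 at -0.21, Lmo2 at -0.12 and Gata2 at -0.19 in AE+Meis2 against AE9a. With 1 library left out, differences in AE9a+Meis2 against AE9a ran between -0.34 and 0.023 for Tcf12, -0.78 and 0.061 for Tcf3, -0.069 and 0.50 for Lyl1, -0.17 and 0.16 for Lmo2, and -0.85 and 0.77 for Erg. In AE+Meis2 against AE9a+Meis2 they ran between -0.30 and 0.24 for Tcf3, -0.87 and 0.40 for Lyl1, -0.22 and 0.46 for Lmo2, -0.0029 and 0.44 for Ldb1, -0.17 and 1.34 for Tal1, and -0.28 and 0.081 for Fli1. In AE+Meis2 against AE9a they ran between -0.80 and 0.043 for Tcf3, -0.65 and 0.62 for Lyl1, -0.22 and 0.46 for Lmo2, -0.98 and 0.53 for Tal1, -0.56 and 0.83 for Gata2, and -0.14 and 0.22 for Fli1. The adjusted exact permutation p of the Lyl1 and Tal1 balance ran between 0.019, without AE+Meis2 replicate 3, and 0.98. With 2 or 3 libraries a group and an unknown depth, differences of less than about the printed intervals could not be seen. Larger ones could also miss the threshold, because the intervals are not adjusted for the number of genes tested. Ldb1, at -0.95 with an interval of -1.60 to -0.30 in AE9a+Meis2 against AE9a, was not called.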
